A study of Mus musculus with 48 samples.

Results

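The replication-dependent histone genes are the 68 genes of the count table, of 24062 in all, whose symbols begin with Hist1h, Hist2h, Hist3h or Hist4h. By the histone class in the symbol, 6 are linker histone H1 genes, 18 are H2A, 19 H2B, 12 H3 and 13 H4 genes. The H2B genes include Hist3h2bb-ps, which is annotated as a processed pseudogene. The Hist1 cluster on chromosome 13 holds 54 of them, the Hist2 cluster on chromosome 3 holds 10, Hist3 on chromosome 11 holds 3, and Hist4 on chromosome 6 is the single gene Hist4h4 (GRCm38). Expression was measured by RNA sequencing in 48 single cells of 1 group, labelled as burst-forming unit erythroid (BFU-E) progenitors from mouse fetal liver. Fetal livers were taken at embryonic day 14.5 or up to 1 day later, cells with lineage surface markers were removed on magnetic beads, and c-Kit-positive cells in the lowest 10% of CD71 staining were sorted. The labels give no strain, genotype or treatment for these cells and no animal, litter or chip, so the 48 cells count as 1 sample, and every relation across them is a description with no test.

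BFU-E are early committed progenitors of the red cell lineage and divide as they differentiate. Replication-dependent histone genes supply the histones that package new DNA, and their messenger RNAs accumulate in S phase. Most such transcripts end in a conserved stem-loop, bound by the protein SLBP, in place of a poly(A) tail. The cDNA chemistry used here primes on poly(A), so a transcript that ends at the stem-loop offers the primer no tail.

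The histone 3′ stem-loop consensus, 16 bases of which 11 are fixed letters and the rest any base, was searched for in the GENCODE M21 transcripts with at most 1 mismatch in the fixed letters. The letters were found in 46 of the 68 members, without a mismatch in 98 of 58797 protein-coding transcripts (0.167%), and with at most 1 mismatch in 2.04% of those transcripts. In all 46 members the first 6 bases were the reverse complement of the last 6. Of the examples below, Hist1h4d, Hist1h1e, Hist1h2ae and Hist1h2bg return in the relations described later. Hist1h4i is a further H4 gene, and Hist1h3g differs from the consensus. They are written 5′ to 3′ as DNA, with the 16-base stem-loop in capitals and 5 flanking bases on each side.
Hist1h4d: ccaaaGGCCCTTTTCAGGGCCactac
Hist1h4i: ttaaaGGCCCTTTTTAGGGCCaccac
Hist1h1e: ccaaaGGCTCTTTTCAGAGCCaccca
Hist1h2ae: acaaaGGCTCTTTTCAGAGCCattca
Hist1h2bg: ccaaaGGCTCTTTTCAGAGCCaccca
Hist1h3g: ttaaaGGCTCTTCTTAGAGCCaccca
The stem set the H4 members apart by sequence and did not separate the other classes from each other. All 34 members of the H1, H2A, H2B and H3 classes with the letters began with GGCTC, and of the 12 H4 members 10 began with GGCCC and 2 with GGTCC. Hist1h3g is 1 of the 2 members with a mismatch. Of the 22 members in which the letters were not found, several have annotated transcripts that hold little beyond the coding sequence, such as Hist1h1b with 743 bases and Hist1h1a with 741 bases.

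Promoter sequence was taken from RefSeq (GRCm38.p6) as the 250 bases before the annotated start, which was present for 62 members in 63 windows. The letters CCAAT, counted on both strands like the motifs that follow, were in 52 of the 63 windows (82.5%), against 33.8% of all 32851 promoter windows of that length. By class they were in 6 of 6 H1, 18 of 18 H2A, 17 of 17 H2B and 8 of 10 H3 windows, but in 3 of 12 H4 windows. TATAAA was in 29 of the 63 windows, against 12.4% of all. ATTTGCAT was in 7 of 18 H2A and 7 of 17 H2B windows and in none of the H1, H3 or H4 windows, against 1.60% of all. AAACACA was in 5 of 6 H1 windows, against 6.25% of all. Among members with a window, 10 pairs of an H2A and an H2B gene point away from each other. Each pair shares a stretch of 163 to 280 bases, so the windows of a pair overlap and are not independent. Hist1h2bc and Hist2h2be have no window, and by annotated position they point away from Hist1h2ac and Hist2h2ac in the same way. The stretch between Hist1h2ae and Hist1h2bg, chr13:23571221-23571399 on the plus strand, is printed as the shared start of a pair that passed the filter on low values described below. Capitals mark CCAAT on either strand (ATTGG is its reverse complement), ATTTGCAT and TATAAA.
Hist1h2ae and Hist1h2bg: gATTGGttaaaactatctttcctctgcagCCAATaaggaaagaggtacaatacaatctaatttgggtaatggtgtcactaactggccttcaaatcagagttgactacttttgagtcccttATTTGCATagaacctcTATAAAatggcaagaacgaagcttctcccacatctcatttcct
The window of Hist1h1e, chr13:23622559-23622808 on the minus strand, is shown as an H1 promoter. Capitals mark, in order along the window, AAACACA, then the CCAAT letters and last the TATAAA letters.
Hist1h1e: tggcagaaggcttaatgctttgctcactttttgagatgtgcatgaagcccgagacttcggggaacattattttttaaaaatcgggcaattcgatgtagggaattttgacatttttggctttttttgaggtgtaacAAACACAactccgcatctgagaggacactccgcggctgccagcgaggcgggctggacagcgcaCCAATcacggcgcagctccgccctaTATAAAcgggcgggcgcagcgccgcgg

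Total counts per cell ranged from 246007 to 3211186 with a median of 1915270, and genes with a read from 5180 to 7935. Levels are given as CPM, a gene's counts relative to the library size of its cell, with library sizes scaled by the trimmed mean of M-values. The sorted cells carried erythroid genes (13 of 14 markers read in at least 10 cells, summed level 8.28 to 8427 CPM) and also neutrophil and monocyte genes (10 of 12, 7.28 to 85825 CPM). Megakaryocyte genes (6 of 9) had 0 to 2600 CPM with a median of 142 CPM. Mast cell and basophil (1 of 7), lymphoid (1 of 8) and endothelial and stromal genes (0 of 6) reached 2247, 441 and 637 CPM in their highest cells. Macrophage markers set 2 libraries apart, with 42035 and 25043 CPM (10 and 9 of the 10 markers read), where the next cell had 1128 CPM. Hepatoblast markers summed to at most 11.8 CPM, with Ttr and Hnf4a at 0. The 2 macrophage-like cells and the 5 cells of lowest total count, all at or below 989513 counts, are followed through the results.

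Reads on the histone genes were few. Member reads per cell ranged from 50 to 1808 with a median of 330, and members with a read per cell from 6 to 35 with a median of 15. As a share of a cell's counts they made up 0.00232% at the lowest, 0.0175% at the median and 0.110% at the highest. The summed level was 22.5 CPM in the lowest cell, 191 CPM in the median cell and 1278 CPM in the highest, with a mean of 243 ± 244 CPM (SD, n = 48 cells). Without the 2 macrophage-like cells the median was 189 CPM and the mean 239 CPM.

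Of the 68 members, 12 had no read in any cell, 25 were read in 1 to 9 cells, and 31 were read in 10 cells or more. Members without a read made up 17.6%, against 41.3% of all genes of the table, and those read in 10 cells or more 45.6%, against 40.3%. The filter on low values, which asks for reads in 10 cells or more and a mean level of 5 CPM, was passed by 11 members (16.2%), against 35.7% of all genes. A read somewhere was thus more common among the members than in the table, and a level above the filter less so. The members at 0 include Hist1h1t, the testis linker histone whose sequence is unique among annotated genes, for which 0 of 48 cells allows a share of up to 6.25% (3 counts). They also include Hist1h2ba, the testis H2B, and Hist2h2aa1, Hist2h2aa2, Hist2h3c1 and Hist1h2bq.

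The classes were not read alike. Linker H1 genes had 29.1% of the 19212 member reads, and 5 of the 6 were read in at least 10 cells, all but Hist1h1t. H2B genes had 44.3% of reads with 10 of 19 in at least 10 cells, H4 genes 15.9% with 6 of 13, and H2A genes 8.65% with 9 of 18. H3 genes had 2.03% of reads, and 1 of 12, Hist1h3d, was read in at least 10 cells. By cluster, Hist1 held 89.4% of reads, Hist2 7.80%, Hist3 1.80% and Hist4h4 1.04%.

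Many members are near-identical copies, so a read can fit more than 1 of them. Whether this shaped which members were read was not tested. Uniqueness was measured as the share of a transcript's 50-base words found at no other annotated gene of GENCODE M21. Genes whose exons overlap the member were not counted as other genes, so words shared only with them count as unique. H1 members had a median of 98.9% unique words (91.5 to 100%), H4 60.5%, H2B 56.2%, and H3 42.8%, and the median was lowest for H2A. Of the 15 members under 20% unique, 7 had no read, 3 were read in at least 10 cells, and together they held 1.60% of member reads. Of the 17 members with 80% or more, 1 had no read, 13 were read in at least 10 cells, and they held 51.4% of reads. The members at 0 had a median of 10.8% unique words, those read in 1 to 9 cells 45.4%, and those read in at least 10 cells 69.4%. Hist2h2aa2 had no unique word at all, Hist2h2aa1 3.72%, Hist1h2bq 2.68%, and each is a close copy of a neighbour. Hist1h1t (100%), Hist3h2ba (77.9%) and Hist1h2ba (61.8%) were also at 0 although most of their words are unique. How the authors' counting treated reads that fit several genes is not given in the sources used here, so levels of members with low uniqueness are uncertain. The same holds for Hist2h2bb, Hist2h3b, Hist2h3c1, Hist2h2aa1 and Hist2h2aa2, whose exons lie 100% within those of other annotated genes.

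**Figure D1:**
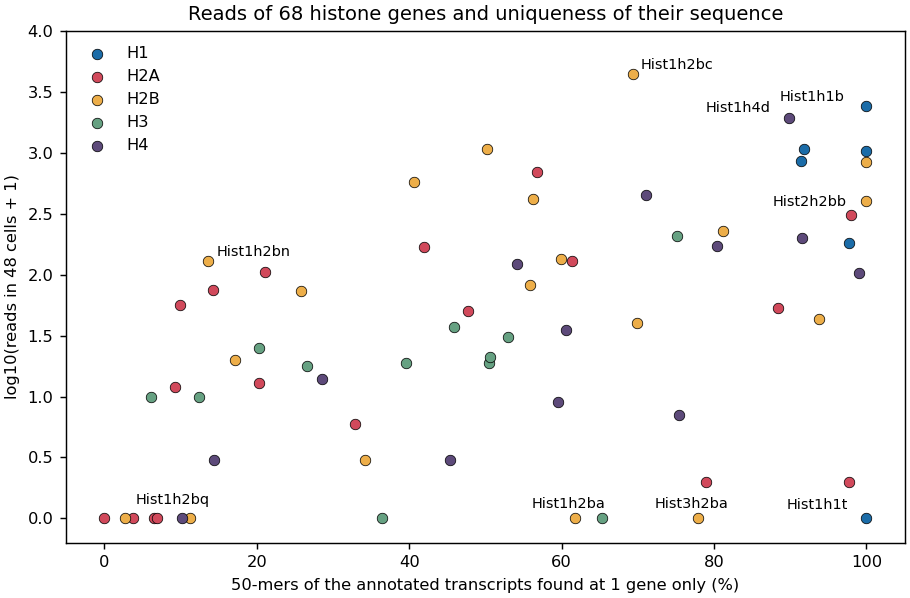
Reads of each histone gene, as log10 of reads in 48 cells plus 1 (vertical axis), against the percent of its 50-base words found at 1 gene only (horizontal axis). Words shared only with genes that overlap the member count as found at 1 gene. Each point is 1 of the 68 members, coloured by histone class; the 12 members on the line at 0 had no read, and the H1 genes other than Hist1h1t sit at the right with many reads.

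Members were also grouped by how far the annotated transcript runs past the stem-loop. The 23 members with at least 100 bases after it held 39.8% of member reads, with 13 read in at least 10 cells. The 23 members with fewer than 100 bases held 10.2%, with 9 read in at least 10 cells, and the 22 without the letters held 50.0%, with 9. Uniqueness differed between these groups as well, with medians of 80.4%, 40.6% and 24.4%, so length past the stem-loop and uniqueness cannot be told apart from these counts. The poly(A) signal letters AATAAA or ATTAAA were in the last 50 bases of 15 of the 68 members, against 50.2% of protein-coding transcripts.

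Hist1h2bc had the most reads of any member, 4443, and was read in 42 of 48 cells (87.5%, exact Clopper-Pearson 95% interval 74.8 to 95.3%). It lies at chr13:23684199-23692908 on the plus strand, and its annotated transcript has 2 exons and 1156 bases without the stem-loop letters, where most members are single-exon genes. Its level was 0 CPM in the lowest cell, 13.4 CPM at the median and 785 CPM in the highest, with a mean of 53.2 ± 124 CPM (SD, n = 48 cells). One cell held 33.5% of its reads and the next had 257 CPM, so a few cells are high and the rest spread below them. That second cell was a macrophage-like cell, in which Hist1h2bc made up 81.6% of the summed histone level. Without the 2 macrophage-like cells the mean was 49.8 CPM.

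The linker genes spanned a wide range. Hist1h1b was read in 32 cells, at 0 CPM in the lowest, 3.57 CPM at the median and 994 CPM in the highest, with a mean of 46.1 ± 155 CPM (SD, n = 48 cells). Its 2 highest cells, at 994 and 438 CPM, were both among the 5 shallowest, and without those 5 cells the mean was 17.9 CPM. Hist1h1c was read in 33 cells, with a median of 1.46 CPM and a highest level of 320 CPM in the other macrophage-like cell, where it made up 94.0% of the histone sum. Its mean was 16.3 ± 50.0 CPM (SD, n = 48 cells), and 9.94 CPM without the macrophage-like cells. Hist1h1e was more even, read in 38 cells with a median of 6.33 CPM, a highest level of 41.3 CPM and a mean of 11.2 ± 12.8 CPM (SD, n = 48 cells). Its annotated transcript runs 1153 bases past the stem-loop and overlaps Gm11398 and Hist1h2be over 25.7% of its exon bases, which leaves reads of the overlap uncertain. Hist1h1a was read in 29 cells, with a median of 0.885 CPM and a highest level of 90.0 CPM, and Hist1h1d in 13 cells with a highest level of 26.2 CPM.

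Among the core histones, Hist1h4d was the member read in the most cells, 43 of 48 (89.6%, 77.3 to 96.5%). Its levels were 0 CPM in the lowest cell, 14.6 CPM at the median and 85.2 CPM in the highest, with a mean of 19.9 ± 20.5 CPM (SD, n = 48 cells), and no cell held more than 8.51% of its reads. It is the H4 gene whose transcript runs 770 bases past the stem-loop (chr13:23581598-23582735, 89.8% unique). Hist1h2ae, an H2A gene, was similarly even, read in 41 cells with a median of 6.03 CPM and a highest level of 50.3 CPM. Its divergent neighbour Hist1h2bg was read in 35 cells, with a median of 2.23 CPM and a highest level of 102 CPM. Hist2h2be, the only Hist2 member that passed the filter, was concentrated in 1 cell with 73.3% of its 838 reads, was read in 15 cells, and had a median of 0 CPM and a highest level of 265 CPM. Hist1h2bj (31 cells, highest 65.7 CPM), Hist1h2bm (25 cells, highest 151 CPM) and Hist1h4i (24 cells, highest 30.0 CPM) followed. Hist1h4f shows how few cells can carry a rare member, with 94.1% of its 34 reads in 1 cell. No member was read in all 48 cells.

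**Figure D2:**
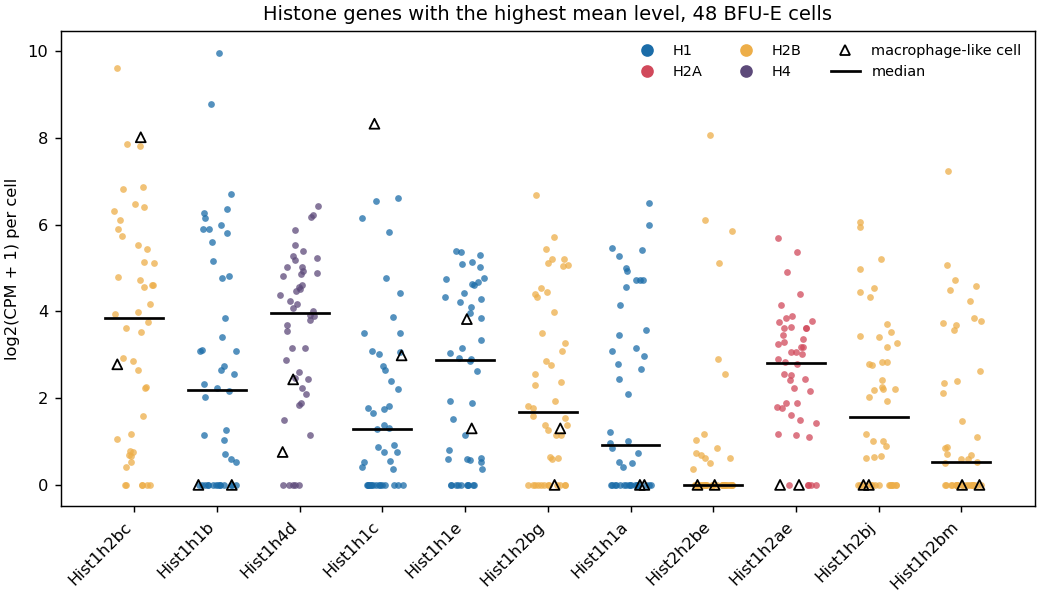
Level of the 11 members that passed the filter, as log2(CPM + 1) on the vertical axis, with 1 point per cell for 48 cells, a bar at the median and triangles for the 2 macrophage-like cells. Hist1h4d, Hist1h2bc and Hist1h2ae have few cells at 0, whereas Hist2h2be has a median of 0 and Hist1h1b has 2 cells far above the rest.

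Per kilobase of annotated exon, Hist1h1b led with a mean of 62.1 CPM per kb, followed by Hist1h2bc, then Hist1h2bg with 18.1 and Hist1h4d with 17.5 CPM per kb. Hist1h1e, with 1930 exon bases, had 5.80 CPM per kb. Without the 5 shallowest cells the lead passed to Hist1h2bc with 48.3 CPM per kb, and Hist1h1b had 24.1 CPM per kb. The ranks also depend on annotated lengths that include a long 3′ end for some members and little beyond the coding sequence for others. The 5 members with the most reads held 57.2% of all member reads, or 53.2% without the cell with the most member reads.

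The cells of highest summed level reached it through different genes. The highest, 1278 CPM, was 77.8% Hist1h1b, the next, 954 CPM, was 82.2% Hist1h2bc, and the third, 897 CPM, was 48.8% Hist1h1b. The first and the third were shallow cells, with 507732 and 357378 counts. In the cell after those, at 563 CPM, no member exceeded 18.1%. A single gene thus made up 48.8% or more of the sum in each of the 3 highest cells, and relations of the sum are given beside those of the members one by one.

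Histone levels were compared with S phase through Pcna, the sliding clamp of replicating polymerases, through Mcm5, a subunit of the replicative helicase, and through a score over 43 S phase genes. Pcna ranged from 0 to 1215 CPM with a median of 311 CPM, and Mcm5 from 2.96 to 2343 CPM with a median of 330 CPM, and each had a Spearman's rho with the S phase score, which includes it, of 0.570 and 0.397. Every rho here is over the same 48 cells, with the library size of a cell used to scale both genes. The labels give 96 pooled libraries for these cells, and whether all 48 were in 1 pool could not be told. None of the 11 members that passed the filter reached a rho of 0.3 with the S phase score, where 6.63% of all genes did. Their median was -0.0628 (range -0.305 to 0.192), beside a median of 0.0490 over all genes. The member nearest to S phase was Hist1h1a, at 0.192 with the score and 0.224 with Pcna. The others in the top 5 were Hist1h2bm (0.108), Hist1h4d (0.0558), Hist1h2ae (0.0111) and Hist1h2bj (-0.0140).

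At the other end Hist1h1c had a rho of -0.305 with the S phase score, the only member at -0.3 or below, where 1.83% of all genes were. Without the macrophage-like cells it was -0.243. Hist2h2be (-0.141), Hist1h2bg (-0.141), Hist1h1b (-0.0924) and Hist1h2bc (-0.0686) followed. With Pcna no member reached 0.3 (3.08% of all genes did) and Hist1h1c was at -0.306 (1.74% of all genes were at -0.3 or below), or -0.108 as Pearson's r of log2(CPM + 10). With Mcm5 the members ran from -0.147 for Hist2h2be to 0.271 for Hist1h2bj, and none was at 0.3 (4.21% of all genes) or at -0.3 (2.1% of all genes).

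The summed level had a rho of -0.363 with the S phase score, against -0.121 with Pcna and -0.0946 with Mcm5. It was -0.281 without the 2 macrophage-like cells and -0.273 without the 5 shallowest cells. With the members weighted equally, as a mean z-score of log2(CPM + 1), it was -0.0774, and without the 5 members of highest mean it was -0.142. The members taken one by one, with the median of -0.0628 given above, lay nearer to 0 than the sum.

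With a score over 54 genes of G2 and mitosis, 4 of the 11 members reached 0.3, where 8.39% of all genes did. They were Hist1h4d (0.370), Hist1h1e (0.368), Hist1h2ae (0.356) and Hist1h1b (0.322). Each fell short of 0.3 under at least 1 alternative: Hist1h4d was at 0.254 and Hist1h2ae at 0.143 with all cells thinned to the shallowest, Hist1h1e at 0.292 without the 5 shallowest cells, and Hist1h1b at 0.125 as Pearson's r of log2(CPM + 10). Hist1h2bc was at -0.422, where 1.76% of all genes were at -0.3 or below. The median over members was 0.209, beside 0.0722 over all genes, and the summed level was at -0.0919. Beside these values, the rho with the number of genes detected in a cell was 0.240 for Hist1h4d, 0.113 for Hist1h1e and -0.149 for Hist1h2bc.

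Gata1, the erythroid master transcription factor, ranged from 0 to 1722 CPM with a median of 60.1 CPM, and Mpo, the myeloperoxidase of neutrophil and monocyte granules, from 1.32 to 53282 CPM with a median of 169 CPM. The levels of Gata1 and Mpo had a rho of -0.571 with each other, so a relation with one is not separate from a relation with the other. The G2/M score itself had a rho of -0.353 with Mpo and 0.297 with Gata1, so the G2/M relations above are tied to both as well. With Gata1, 3 members reached 0.3, where 5.57% of all genes did: Hist1h4d at 0.498, Hist1h1e at 0.451 and Hist1h2ae at 0.334, or 0.147 with all cells thinned to the shallowest. None was at -0.3 or below (5.34% of all genes), and Hist1h2bc was lowest at -0.215. With Mpo, Hist1h2bc was the only member above 0.3, at 0.467 (7.41% of all genes), and Hist1h1e the only one at -0.3 or below, at -0.374 (4.1% of all genes), with Hist1h4d at -0.295. Without the macrophage-like cells Hist1h4d and Gata1 had 0.488, Hist1h1e and Gata1 0.455, Hist1h1e and Mpo -0.394, and Hist1h2bc and Mpo 0.501.

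**Figure D3:**
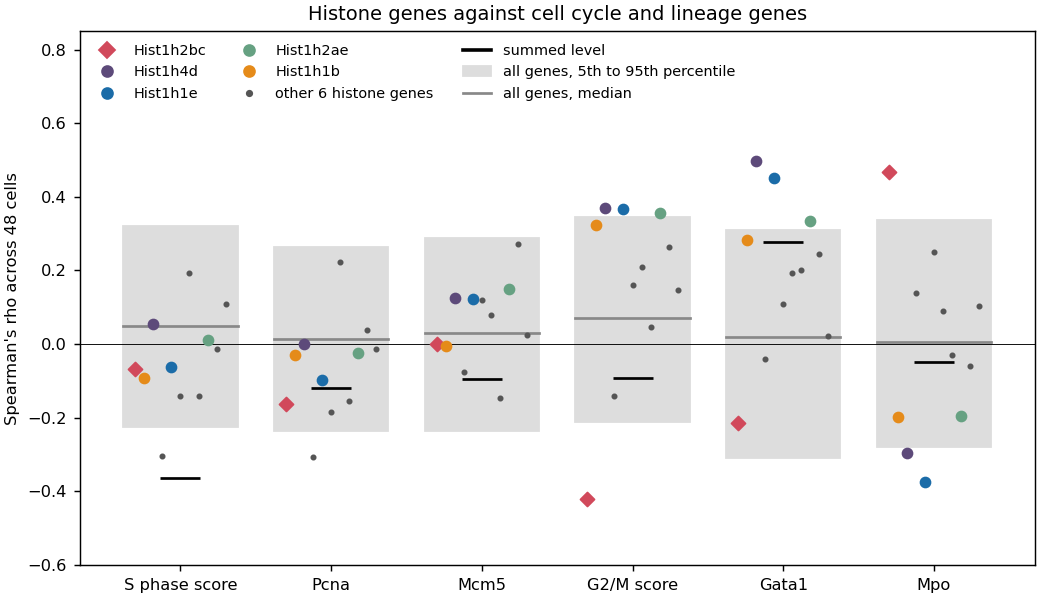
Spearman's rho across 48 cells (vertical axis) of each of the 11 members with the S phase score, Pcna, Mcm5, the G2/M score, Gata1 and Mpo (horizontal axis). Grey boxes span the 5th to 95th percentile of all genes that passed the filter, grey lines their median and black bars the summed histone level; Hist1h4d and Hist1h1e lie above the box at Gata1 and Hist1h2bc above it at Mpo and below it at G2/M.

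Hist1h4d, Hist1h1e and Hist1h2bc, picked for the rho values above, are shown here in the same cells. These counts restate those relations and are no separate support. Of the 18 cells with at least 1000 CPM of Mpo, Hist1h4d was above its median over all cells in 2, and of the other 30 cells in 22. Its levels were 0, 7.13 and 35.5 CPM (lowest, median, highest) in the cells high in Mpo and 0, 22.2 and 85.2 CPM in the others. Hist1h1e was above its median in 5 of the 18 and 19 of the 30, with medians of 0 and 13.3 CPM. Hist1h2bc went the other way, above its median in 12 of the 18 and 12 of the 30, with medians of 24.5 and 8.21 CPM. The ranges overlapped for all 3 genes. Split by Gata1 at 100 CPM, Hist1h4d was above its median in 17 of 22 cells with more and 7 of 26 with less, Hist1h1e in 13 of 22 and 11 of 26, and Hist1h2bc in 10 of 22 and 14 of 26. The split by Gata1 was plainest for Hist1h4d.

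**Figure D4:**
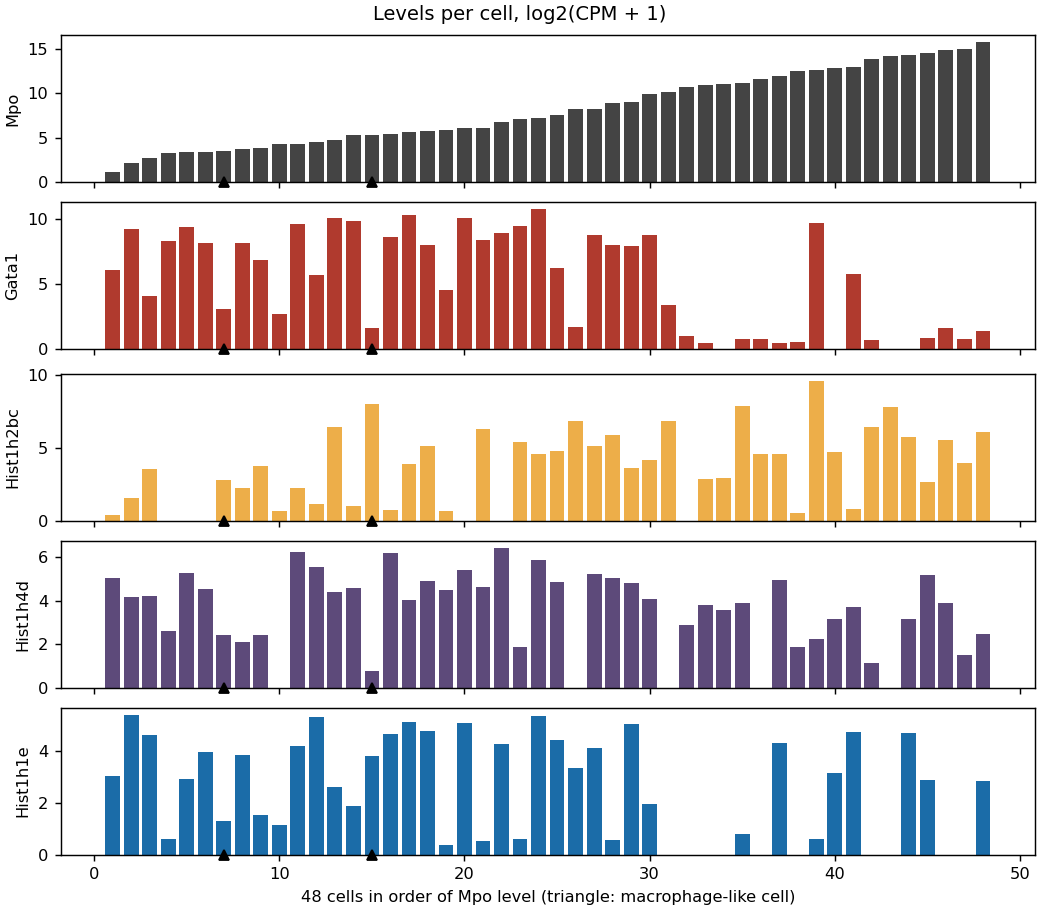
Levels of Mpo, Gata1, Hist1h2bc, Hist1h4d and Hist1h1e as log2(CPM + 1) (vertical axes, each starting at 0) in the 48 cells in order of their Mpo level (horizontal axis); triangles mark the 2 macrophage-like cells. Toward the right, where Mpo is high, most bars of Gata1 and Hist1h1e are at or near 0 and those of Hist1h2bc are mostly present.

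Co-variation among the members followed the same lines. Over the 55 pairs of the 11 members the median rho was 0.194 (range -0.371 to 0.647), beside 0.0146 over all pairs of genes that passed the filter. A rho of at least 0.3 was found in 14 pairs (2.97% of all gene pairs), and 1 pair was at -0.3 or below (1.82% of all gene pairs). The 11 genes share cells and scaling, and 55 pairs among them are not independent. The highest were Hist1h2ae with Hist1h4d (0.647, midpoints 11.3 kb apart), Hist1h2ae with Hist1h1e (0.643, 50.7 kb), Hist1h1b with Hist1h2ae (0.580, 1791 kb), Hist1h4d with Hist1h1e (0.575, 39.4 kb) and Hist1h1b with Hist1h1e (0.474, 1841 kb). These are 4 genes of 3 classes, and all 6 pairs among them were at 0.377 or above.

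Hist1h2bc stood apart from that group. Its 10 pairs had a median of -0.118, none reached 0.3, and its lowest, with Hist1h4d, was the lowest of all pairs at -0.371. Hist1h1c also had no pair at 0.3 (median 0.0904). The divergent neighbours Hist1h2ae and Hist1h2bg, which share the stretch printed above, had 0.270 and were the only pair within 5 kb. The 44 Hist1 pairs farther apart had a median of 0.195 (range -0.371 to 0.647). Hist1h1b and Hist1h2ae, 1791 kb apart and picked above among the 5 highest pairs, are at the upper end of that range. Pairs of the same class had a median of 0.212 (16 pairs) and pairs of different classes 0.145 (39 pairs). Without the macrophage-like cells the median over all 55 pairs was 0.168.

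**Figure D5:**
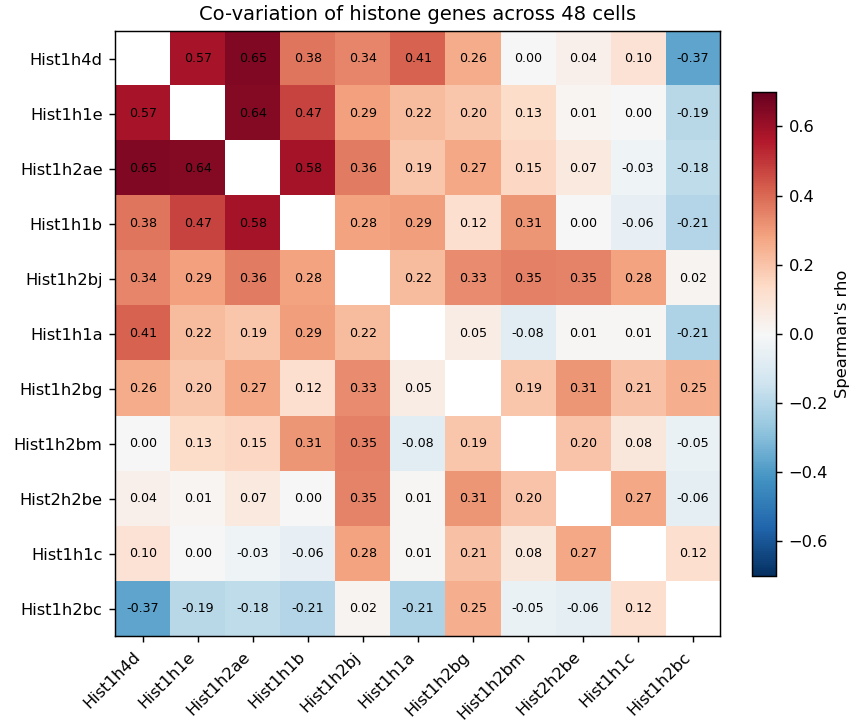
Spearman's rho across 48 cells for each pair of the 11 members, written in each square and coloured from blue (negative) to red (positive). The 4 genes at the upper left, Hist1h4d, Hist1h1e, Hist1h2ae and Hist1h1b, were picked for their high pairs. They have values of 0.38 to 0.65 with each other, and the last column, Hist1h2bc, is negative with most genes.

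Other genes of the pathway were set against the summed level, for which 2.91% of all genes had a rho of at least 0.3 and 4.73% of -0.3 or below. Of 43 S phase genes none was at 0.3 and 4 were at -0.3 or below (Gmnn, Ccne2, Rrm2 and Tipin), and of 54 G2 and mitosis genes none and 3 (Aurkb, Cdc20 and Nek2). Of 24 genes that transcribe or process histone messenger RNA and passed the filter, Ccne2, a cyclin that with Cdk2 drives entry into S phase, was at -0.324 and no other was past 0.3 in size. Slbp, which binds the stem-loop, was read in 47 cells at 0 to 1112 CPM with a median of 162 CPM. It had a rho of 0.425 with the S phase score, of which it is a member, and of -0.211 with the summed histone level. Npat, the coactivator of histone gene transcription, was read in 33 cells with a median of 1.61 CPM and a highest level of 1262 CPM. Of 19 histone chaperones Asf1b, which hands H3 and H4 to the assembly machinery, was at -0.361, and no other was past 0.3 in size.

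Many replication-independent histone variants are made outside S phase as well, most of them from polyadenylated transcripts. H2afz, H3f3a, H3f3b and H2afy were read in all 48 cells, with means of 2249 ± 842, 578 ± 364, 1609 ± 844 and 399 ± 410 CPM (SD, n = 48 cells). Per kilobase of annotated exon these means were 1266 CPM per kb for H2afz, 165 for H3f3a, 541 for H3f3b and 58.6 for H2afy, where Hist1h1b, the highest member over all 48 cells, had 62.1 CPM per kb. H2afy, macroH2A, had a rho of 0.519 with Mpo and -0.349 with Gata1, and H2afz 0.343 with Gata1. Cenpa, the centromeric H3, had a mean of 144 CPM and a rho of 0.571 with the G2/M score, of which it is a member. H2afv (83.4 CPM), H2afx (40.1 CPM), H2afj (19.4 CPM) and H1f0 (10.2 CPM) were lower, and H2afy2, H2afb1, H1fx and H1foo were listed at 0. Of the 9 variants that passed the filter, H2afj was at 0.310 with the summed level and none was at -0.3.

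The genes most like the summed level over 48 cells, among 8590 that passed the filter and are no members, were Jpx (rho 0.653), Abcd4 (0.614), Rapgef4, Soat2, Slc38a6, Ttbk2, Zfp345 and Ube2j2. The most opposed were Ngly1 (-0.559), Papola (-0.514), which encodes a poly(A) polymerase, Srp19, AU019823, Drg1, Alg10b, Pafah1b2 and 1110059G10Rik. Of the marker lists, erythroid genes had 2 of 13 at 0.3 or above (Klf1 and Nfe2), and neutrophil and monocyte (10 genes) and macrophage genes (9 genes) had none. The median rho over the genes of these lists was 0.106, 0.00599 and 0.135 in that order. Summed over each list, marker levels had a rho of 0.0726, 0.0808 and 0.0872 with the summed histone level, so the erythroid list as a whole was not higher.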

How the data were processed

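Single cells were captured on the Fluidigm C1 system, amplified as SMART-Seq cDNA, tagmented and read at 50 to 75 bases, per the labels' protocols. Reads were aligned with TopHat2 2.0.12 to mm10 and counted with featureCounts 1.4.6 of Subread, per the submitters' processing notes; the annotation, strand setting and treatment of reads that fit several genes are not given in the sources used here. The authors deposited whole-number counts per gene for 48 cells. The authors also deposited log2 normalized values, which equal log2(count / DESeq size factor + 1) within 1e-06 and were used for that check only. Column names could not be tied to sample titles, so the cells were treated as 1 sample; 0 pairs of columns were identical.

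CPM used TMM library sizes of edgeR 4.0.16 (factors 0.419 to 1.70) in R 4.3.3, and DESeq2 1.42.0 gave size factors for an alternative. Other steps used Python 3.11.15, numpy 2.4.6, scipy 1.17.1, pandas 2.3.3 and matplotlib 3.10.9. Scores are mean z-scores of log2(CPM + 1) over S phase and G2/M gene lists. Relations are Spearman's rho over cells, for genes read in at least 10 cells with a mean of 5 CPM (8601 genes), with 0.3 as the bound; the script was tested on simulated data. Intervals and limits of a count of 0 (3 counts) cover counting error only, since the libraries carry no molecular identifiers and PCR copies are counted. Gene positions and transcripts are from GENCODE M21 (GRCm38), in which all 68 members were matched by symbol. Uniqueness was measured against transcripts and not the genome, with genes that overlap a member not counted as other genes.

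Members, lists and rules were chosen with earlier results of these data known. Genes named were the 12 members of highest mean CPM, the 5 highest and 5 lowest by rho with S phase, the 5 highest pairs, up to 6 members with no read, Pcna, Mcm5, Gata1, Mpo, the histone variants, list genes past 0.3 and the 8 genes most like and most opposed to the sum; other members were named after their values were seen. Mlf1ip, Ars2, Spt2 and H3f3c are not in the table. Alternatives changed library size, cells kept, depth, correlation measure, pseudocount, covariate, filter, S phase list and the way members are combined.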

Additional observations from a re-analysis of the deposited data

How the results depend on the processing

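Of 114 alternatives to the main values, 99 moved them by less than the tolerance (0.1 in rho, 1 SD, or 1.5 times for counts) and 15 moved them by more. Among the latter the sign turned for the summed level with Mcm5 and with the G2/M score, whose main values are near 0. The number of members read in at least 10 cells, 31, was 15 with every cell thinned to 246007 counts, so this count depends on depth. It was 9 under a stricter bound on level, where a cell needed 10 CPM. The share of all genes under these settings was not computed. The rho of the summed level with the S phase score, -0.363, was -0.0774 with a mean z-score of members, -0.142 without the 5 members of highest mean and -0.0968 with a score over Pcna and Mcm5 alone. With Mcm5, -0.0946 became 0.0106 without the 5 shallowest cells, -0.235 and -0.233 as Pearson's r of log2(CPM + 1) and log2(CPM + 10), and 0.0967 with the mean z-score. With the G2/M score, -0.0919 became 0.0230 given genes detected, 0.224 with the mean z-score and 0.214 without the 5 leading members. With Gata1, 0.277 became 0.397 with the mean z-score and 0.401 without the 5 leading members. The median rho of members with Mpo, -0.0299, was -0.149 as Pearson's r of log2(CPM + 10). For these values the cause was not tested.

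Single members were put through up to 9 of the same alternatives, chosen after seeing the data. Of 66 relations, 12 were at 0.3 or beyond, and the shares of all genes there are given above for each score and gene. These 12 were picked for their size and the alternatives reuse the same cells, so keeping the sign is no separate support. How many of all genes stay past 0.3 in this way was not computed. All 12 kept their sign, and 5 stayed at 0.3 or beyond in every alternative run. These were Hist1h4d with Gata1 (0.485 to 0.543), Hist1h1e with Gata1 (0.403 to 0.468), Hist1h1e with Mpo (-0.399 to -0.326), Hist1h2bc with Mpo (0.387 to 0.503) and Hist1h2bc with the G2/M score (-0.612 to -0.387). The lowest values of the 4 positive relations with the G2/M score were 0.254 for Hist1h4d, 0.292 for Hist1h1e, 0.143 for Hist1h2ae and 0.125 for Hist1h1b. Hist1h2ae with Gata1 ran from 0.147 to 0.402, and Hist1h1c with Pcna from -0.387 to -0.108. No paired analysis was possible because the 48 cells form 1 group and no value comes from a test.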
